A study of Mus musculus with 34 samples.

Results

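The comparison set hippocampi of Dp16 mice against those of wild-type (WT) mice, all given vehicle, and so concerned the triplicated segment of chromosome 16 without drug and without an amyloid transgene. Libraries were chosen by the genotype and treatment in their labels, which gave 8 of the 34 libraries of the series. The 3 Dp16 animals (libraries 1 and 2 female, library 3 male) and the 5 WT animals of the strain C57BL/6J (1 and 2 female, 3 to 5 male) were 6 months old and were gavaged daily with 0.5% methylcellulose over a month, here called sham. The other animals of the series received 15 mg/kg tofacitinib, an inhibitor of Janus kinases, or carried the 5xFAD transgenes of familial Alzheimer's disease. Of those, 5 Dp16 and 5 WT animals on tofacitinib served to look at the same segment. So did 3 5xFAD-Dp16 and 4 5xFAD sham animals. All of these were also 6 months old. On tofacitinib, females and males numbered 3 and 2 in Dp16 and 2 and 3 in WT animals. They numbered 2 and 1 in 5xFAD-Dp16 sham and 1 and 3 in 5xFAD sham animals. The labels do not give the background strain of the Dp16 animals. Nothing says how animals were shared between litters, so p-values measure the spread between animals. That spread was estimated within groups over all 34 libraries, not over these 8 alone.

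Dp16 mice carry, in every cell, an extra copy of a stretch of mouse chromosome 16 whose genes match a large part of human chromosome 21, and they are used as a model of Down syndrome. The stretch runs from Lipi to Zbtb21 and includes App, the precursor of amyloid beta, a cluster of cytokine receptor genes and the kinase gene Dyrk1a. With an added gene copy and no other adjustment, a transcript is expected at 1.5 times its usual level, which is 0.58 on the log2 scale. Other genes of human chromosome 21 have their mouse counterparts on chromosomes 10 and 17 and are not triplicated in this strain.

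Library totals were 17029512 to 18711669 counts in Dp16 and 16408821 to 21106582 counts in WT animals. Levels are given as CPM, the count of a gene relative to its library total after TMM scaling. Xist, transcribed from the inactive X chromosome, had 987 to 1337 counts in the labelled females and at most 1 in the males. The hippocampal neuron markers were present in every library: the 16 tested markers of fields CA1 and CA3 summed to 2596 to 2661 CPM in Dp16 and 2655 to 2964 CPM in WT animals. Markers of the choroid plexus, a tissue next to the hippocampus, differed widely between libraries. The 18 tested markers summed to 3949, 3431 and 1324 CPM in Dp16 libraries 1 to 3, against 280, 1678, 4893, 370 and 237 CPM in WT libraries 1 to 5. Whether this came from the dissection was not tested. WT library 5 stood apart in Gm42418, a gene model that took 2.42% of its counts, against 0.276% to 0.325% in the Dp16 and 0.257% to 0.413% in the other WT libraries. In such whole-tissue samples fewer cells of a type and less RNA per cell cannot be told apart.

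In Dp16 hippocampus the segment was raised as a block. Of the 384 genes of the segment in the files (chromosome 16, 75540514 to 97962622, GRCm38, 22.4 Mb), 107 passed the filter on low counts, and 34 of these rose in Dp16 at an adjusted p below 0.05 while 0 fell; over all 17518 genes tested, 0.245% were called higher and 0.0628% lower. The median log2 fold change of the 107 genes was 0.58, with quartiles at 0.41 and 0.72, beside 0.01 over all genes tested. The 426 tested genes on the rest of chromosome 16 had a median of 0.02, with quartiles at -0.13 and 0.21, and 1 of them was called. For each animal, the median log2 ratio of the 107 genes to the WT mean (0.1 CPM added) was 0.56, 0.58 and 0.52 in the Dp16 animals, against -0.02, 0.01, 0.03, -0.04 and -0.03 in the WT animals. Every Dp16 animal lay far above every WT animal. In all 15 animals of the series with the segment this ratio lay between 0.48 and 0.64, counting those on tofacitinib or with 5xFAD.

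**Figure D1:**
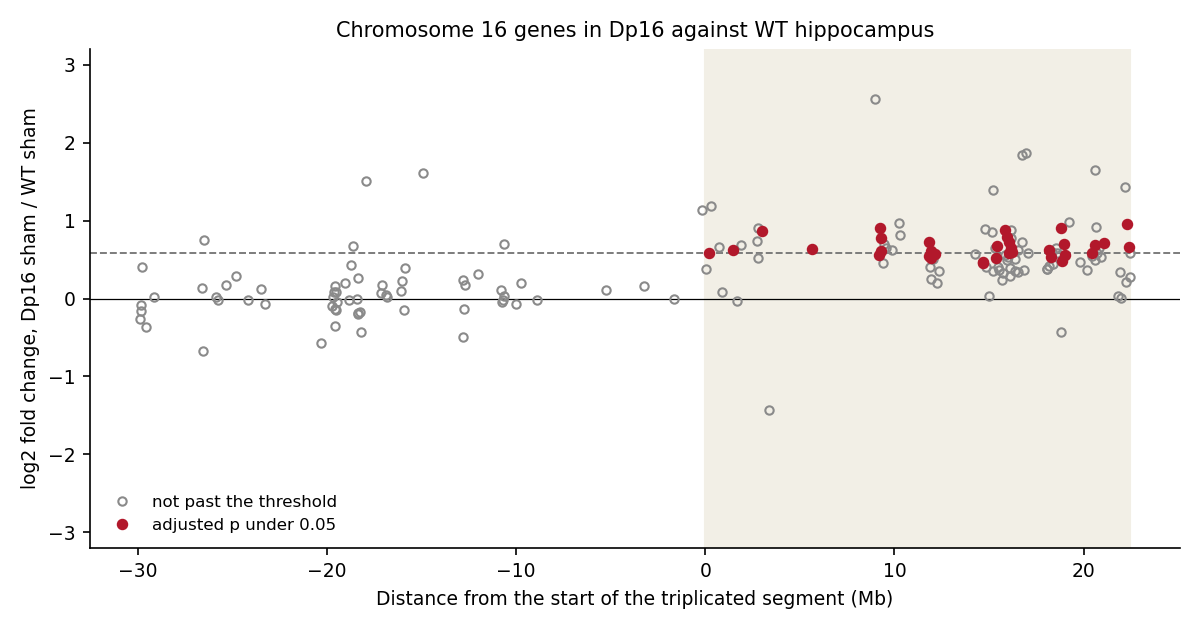
Log2 fold change (Dp16 sham over WT sham) of tested chromosome 16 genes against their distance in Mb from the start of the segment, which is shaded; filled points passed an adjusted p of 0.05 and the dashed line marks a ratio of 1.5. The 34 filled points of the segment all lie above 0, and the genes drawn before its start scatter around 0. Genes far before the start are not drawn, among them Liph, the called gene on the rest of the chromosome.

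Gene by gene, 104 of the 107 tested segment genes had a positive log2 fold change. In 67 of them all 3 Dp16 animals lay above all 5 WT animals, and in 1, Chodl, all lay below; of all genes tested, 4.62% were separated upward and 4.56% downward. At an unadjusted p below 0.05 stood 7.29% of all genes tested. The 95% interval of the fold change lay above 0 for 68 segment genes, and for 95 it included log2 of 1.5. An interval wholly above that value was found for 5 genes (Ifnar1, Ifnar2, Jam2, D16Ertd472e and A730009L09Rik). A further 7 had one wholly below it (Son, Rcan1, Cbr1, Olig2, Prdm15, Gm9843 and Chodl). A730009L09Rik and Chodl averaged under 1 CPM and are named because they are members of these small groups. The intervals are not adjusted for the 107 genes, so some would miss the true value by error alone. On tofacitinib and with 5xFAD, Ifnar1 was at 0.63 and 0.56 and Ifnar2 at 0.62 and 0.51. There Jam2 was at 0.74 and 0.85 and D16Ertd472e at 0.68 and 0.98.

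Of the 4 tested cytokine receptor genes of the segment 2 rose, with a median log2 fold change of 0.67. Ifnar1 and Ifnar2 encode the subunits of the type I interferon receptor. Ifnar1 had 61.1, 60.6 and 58.3 CPM in Dp16 animals, against 39.7, 32.3, 34.2, 32.8 and 31.9 CPM in WT animals. The groups were separate by a wide margin, and the rise was 0.79 ± 0.09 (log2, SE; adjusted p = 7.35e-06), with a 95% interval of 0.61 to 0.97. Ifnar2 had 30.2, 32.7 and 31.1 CPM in Dp16 animals, against 15.4, 18.9, 20.03, 12.7 and 17.7 CPM in WT animals. Again no animal overlapped, and the rise was 0.88 ± 0.10 (adjusted p = 1.10e-05). Per length, the mean level was 15.3 ± 0.333 RPKM for Ifnar1 in Dp16 and 8.73 ± 0.791 RPKM in WT, and 9.81 ± 0.395 RPKM for Ifnar2 in Dp16 and 5.33 ± 0.946 RPKM in WT (SD, n = 3 and n = 5). Ifngr2, a chain of the interferon-gamma receptor, had 102, 109 and 108 CPM in Dp16 animals, against 67.5 to 80.2 CPM in WT animals, and Il10rb, a chain shared by receptors of the interleukin-10 family, had 11.9 to 13.3 CPM in Dp16, against 7.94 to 9.31 CPM in WT. Both were separate between the groups, with log2 fold changes of 0.54 ± 0.17 and 0.56 ± 0.15, and did not pass the threshold (adjusted p = 0.346 and 0.191).

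**Figure D2:**
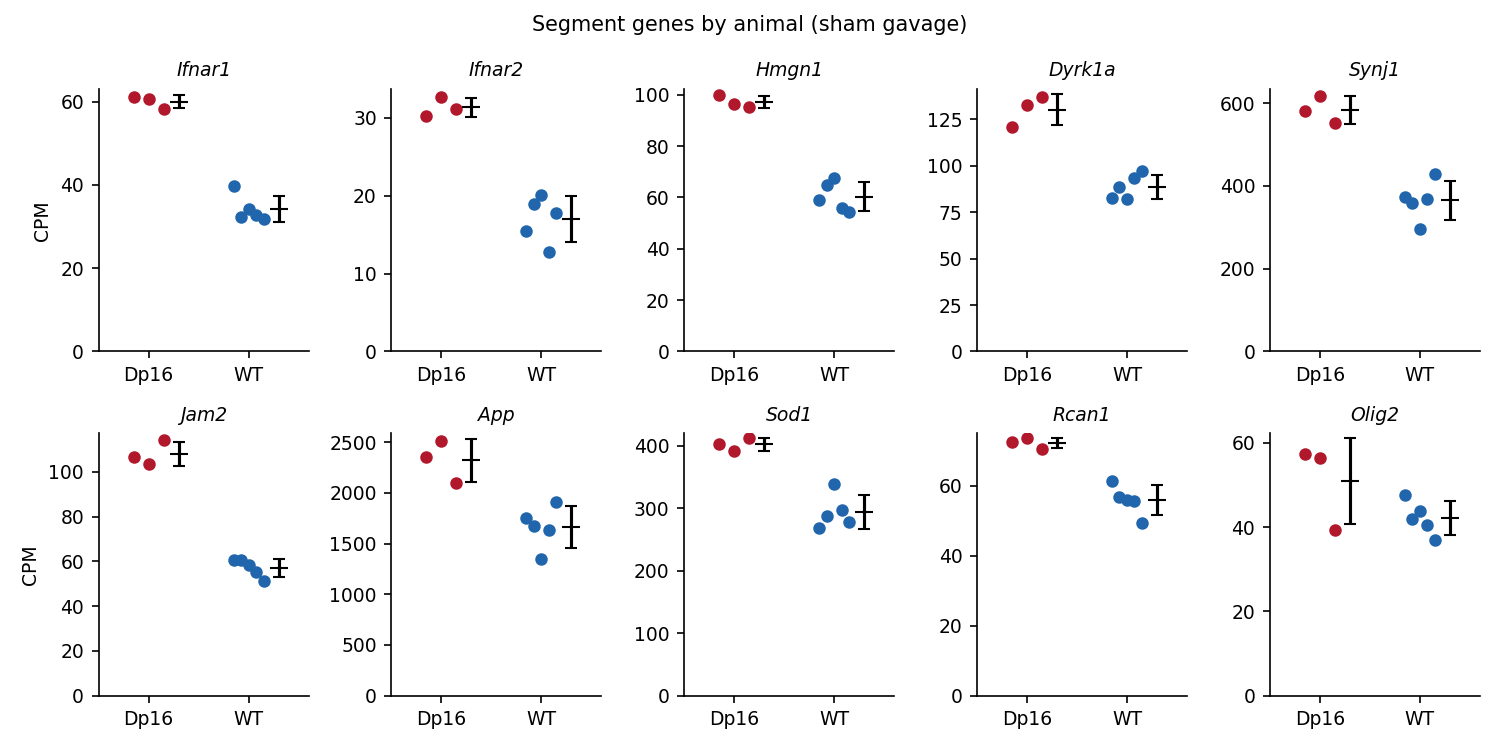
Level in CPM of 10 segment genes in each Dp16 (n = 3) and WT (n = 5) sham animal, with mean and SD beside the points. Ifnar1, Ifnar2 and Jam2 show wide gaps between the groups, Rcan1 a narrow one, and Olig2 overlaps.

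Among 19 tested transcription and chromatin genes of the segment, 6 rose, and the median log2 fold change of the 19 was 0.58. Hmgn1, which encodes a nucleosome-binding protein, had 100.01, 96.5 and 95.2 CPM in Dp16 animals, against 59.0, 64.8, 67.7, 55.8 and 54.5 CPM in WT animals. The groups did not overlap, and the rise was 0.69 ± 0.09 (adjusted p = 2.76e-05). Gabpa, a subunit of the ETS-type factor that drives nuclear genes of mitochondrial proteins, rose by 0.78 ± 0.11 (adjusted p = 9.26e-05). Bach1, a repressor of heme oxygenase, and Brwd1, a bromodomain protein, rose by 0.57 ± 0.10 and 0.58 ± 0.09. The zinc finger gene Morc3 rose by 0.53 ± 0.10 and the BTB factor Zbtb21, at the far end of the segment, by 0.66 ± 0.15. Olig2, a factor of the oligodendrocyte lineage, had 57.3, 56.3 and 39.2 CPM in Dp16 animals, against 37.0 to 47.6 CPM in WT animals. Its groups overlapped, and the fold change was 0.24 ± 0.16 (adjusted p = 0.816). Its neighbour Olig1 was separate between the groups, at 0.33 ± 0.14 (adjusted p = 0.604). The factors Nrip1 (0.66), Erg (0.47), Ets2 (0.37) and Prdm15 (0.21) did not pass either, with adjusted p of 0.102, 0.504, 0.595 and 0.847.

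Of 8 tested signalling regulators, 2 rose. Dyrk1a, a dose-sensitive kinase studied in Down syndrome, had 121, 133 and 137 CPM in Dp16 animals, against 82.5, 88.4, 82.3, 93.6 and 97.0 CPM in WT animals. All Dp16 values were higher, and the rise was 0.56 ± 0.08 (adjusted p = 0.00028). Ttc3, a ubiquitin ligase, rose by 0.48 ± 0.07 (adjusted p = 0.00028). Rcan1, an inhibitor of calcineurin, had 72.5, 73.6 and 70.6 CPM in Dp16 animals, against 61.2, 56.8, 56.0, 55.7 and 49.2 CPM in WT animals. The groups were separate but close: the log2 fold change was 0.37 ± 0.09, with a 95% interval of 0.18 to 0.56, and did not pass the threshold (adjusted p = 0.0845). Tiam1, an activator of the GTPase Rac, and Pcp4, a calmodulin regulator, had fold changes of 0.57 ± 0.24 and 0.53 ± 0.43 with non-overlapping groups, and neither passed (adjusted p = 0.582 and 0.866).

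Of 8 tested membrane traffic genes 5 rose, beside 34 of all 107 tested segment genes. Synj1, a lipid phosphatase that uncoats synaptic vesicles, had 581, 618 and 551 CPM in Dp16 animals, against 373, 359, 296, 370 and 429 CPM in WT animals. Dp16 animals were all higher, and the rise was 0.67 ± 0.14 (adjusted p = 0.0128). Itsn1, an endocytic scaffold, rose by 0.59 ± 0.10 (adjusted p = 0.00179). Vps26c, a subunit of a complex that returns endosomal cargo, rose by 0.70 ± 0.13, Dop1b, an endosomal protein, by 0.62 ± 0.13, and Tmem50b, an endoplasmic reticulum membrane protein, by 0.59 ± 0.07. Wrb, which helps insert tail-anchored proteins into membranes, lay at the threshold (0.49 ± 0.12, adjusted p = 0.0524), with 70.9 to 78.3 CPM in Dp16 animals, against 50.2 to 54.7 CPM in WT animals.

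Of 14 tested amyloid precursor, adhesion, channel and transporter genes 3 rose, with a median log2 fold change of 0.65, and App did not pass the test. Jam2, a tight junction adhesion molecule, had 107, 104 and 114 CPM in Dp16 animals, against 60.5, 60.6, 58.3, 55.1 and 51.3 CPM in WT animals. The gap between the groups was wide, and the rise was 0.91 ± 0.14 (adjusted p = 0.00028). Dscam and Ncam2, adhesion molecules of neurons, rose by 0.71 ± 0.12 and 0.63 ± 0.12. The amyloid precursor gene App had 2356, 2509 and 2096 CPM in Dp16 animals, against 1753, 1677, 1347, 1638 and 1915 CPM in WT animals. Every Dp16 value was higher, and the fold change of 0.46 ± 0.14 had a 95% interval of 0.17 to 0.74 and an adjusted p of 0.29. Kcnj6, a potassium channel gated by G proteins, had 44.6 to 60.9 CPM in Dp16, against 21.5 to 31.4 CPM in WT (0.98 ± 0.32, adjusted p = 0.383), and Cxadr, an adhesion molecule and virus receptor, 12.7 to 17.4 CPM in Dp16, against 5.56 to 10.2 CPM in WT (0.91 ± 0.21, adjusted p = 0.0522). Both were separate between the groups without passing the threshold. Grik1, a kainate receptor subunit, overlapped at 0.36 ± 0.18. Bace2, a protease that can cleave App, had 3.77, 3.07 and 3.70 CPM in Dp16 animals, against 1.73 to 4.78 CPM in WT animals, a fold change of 0.03 ± 0.47.

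A pair of transport genes of the segment varied with the level of choroid plexus markers in the library. Clic6 had 92.1, 88.4 and 22.3 CPM in Dp16 animals, against 2.64, 27.1, 49.1, 6.51 and 0.563 CPM in WT animals. Kcne2, a potassium channel subunit of the choroid plexus, had 32.5, 30.4 and 13.1 CPM in Dp16 animals, against 0, 8.15, 27.5, 0.493 and 0 CPM in WT animals. WT library 3, the highest in choroid plexus markers, was also the highest WT library for both genes, and the groups overlapped. Their fold changes of 1.87 ± 1.56 and 1.84 ± 1.98 are the largest of the segment among genes with at least 1 CPM on average, and their intervals reach from -1.35 to 5.09 and from -2.24 to 5.91. How much of these values the choroid plexus content accounts for was not tested.

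Of 8 tested redox, purine and biotin genes, 2 rose. Sod1, the cytosolic superoxide dismutase, had 403, 391 and 413 CPM in Dp16 animals, against 268, 287, 339, 297 and 278 CPM in WT animals. No animal overlapped, and the rise was 0.47 ± 0.09 (adjusted p = 0.0123). Per length it was the most abundant gene named here from the segment, at 624 ± 17.8 RPKM in Dp16 and 458 ± 47.9 RPKM in WT. Cryzl1, a quinone oxidoreductase-like gene, rose by 0.65 ± 0.15. Cbr1, a carbonyl reductase, and Gart, an enzyme of purine synthesis, had fold changes of 0.38 ± 0.10 and 0.40 ± 0.12 and did not pass (adjusted p = 0.0981 and 0.26). Donson, a replication factor, and Hlcs, which attaches biotin to carboxylases, were at 0.88 ± 0.22 and 0.59 ± 0.20 and did not pass either.

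Mitochondrial genes of the segment gave 2 calls of 6 tested. Mrpl39, a protein of the mitochondrial ribosome, rose by 0.56 ± 0.08 (adjusted p = 0.00028), and Atp5j, a subunit of ATP synthase, by 0.61 ± 0.13 (adjusted p = 0.0269). Atp5j shares 397 bases of exon (12.7% of its own) with Gabpa on the other strand. Atp5o, another ATP synthase subunit, was separate between the groups at 0.51 ± 0.12 (adjusted p = 0.0708), with 234, 243 and 280 CPM in Dp16 animals, against 164, 174, 224, 178 and 152 CPM in WT animals.

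The list of RNA processing and protein quality genes, which also holds others such as Pigp, C2cd2 and Cfap298, gave 11 calls among 20 tested. Over the whole segment 34 of 107 tested genes rose. Hspa13, a chaperone and the second tested gene of the segment, had 72.6, 75.3 and 74.5 CPM in Dp16 animals, against 48.3, 44.2, 52.5, 51.7 and 50.05 CPM in WT animals. The values were tight and separate, and the rise was 0.58 ± 0.09 (adjusted p = 0.00028). The chaperonin subunit Cct8 rose by 0.52 ± 0.08, the chaperone-like gene Dnajc28 by 0.72 ± 0.11, and the ubiquitin ligase Ltn1, which clears stalled nascent chains, by 0.55 ± 0.11. The deubiquitinases Usp25 and Usp16 rose by 0.62 ± 0.10 and 0.62 ± 0.13, and the methyltransferase N6amt1 and the RNA polymerase-binding Scaf4 by 0.72 ± 0.17 and 0.46 ± 0.10. Pigp, an enzyme subunit of GPI anchor synthesis, C2cd2 and Cfap298 rose by 0.90 ± 0.18, 0.96 ± 0.19 and 0.53 ± 0.11. Pigp shares 326 bases (16.4% of its exon bases) with Ttc3 on the other strand, which is read far more often. Cfap298 shares 44.2% of its exon bases with Gm49727 on the other strand. The splicing cofactor Son had 244, 224 and 215 CPM in Dp16 animals, against 199.9, 188, 142, 191 and 202 CPM in WT animals. Its groups were separate with little room between them, at 0.29 ± 0.11 (adjusted p = 0.491).

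Whether a segment gene was called went with its level. The 19 tested segment genes under 1 CPM had a median log2 fold change of 0.60 and 0 calls, the 19 between 1 and 10 CPM 0.59 and 0 calls, the 56 between 10 and 100 CPM 0.59 and 27 calls, and the 13 above 100 CPM 0.52 and 7 calls. The medians were alike across levels while the median SE was 0.76, 0.41, 0.14 and 0.12 in these classes, from low to high level. Among the 5 lowest fold changes at 1 CPM or more were Bace2, Prdm15 and Gm9843, with Mir99ahg, the host transcript of a microRNA cluster, at -0.03 ± 0.31. Mir99ahg overlapped between the groups, with 1.78 to 2.78 CPM in Dp16 and 1.07 to 3.01 CPM in WT.

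Few expressed genes lay at the ends of the segment. Rbm11, the first tested gene inside, stood at 0.38 ± 0.21 with separate groups, and Hspa13 follows. Lipi itself, which marks the start and encodes a phospholipase, was under the filter, with 11, 13 and 5 counts in Dp16 animals, against 1, 0, 0, 0 and 0 counts in WT animals. Other carriers of the segment did not all have Lipi reads: Dp16 mice on tofacitinib had 6, 3, 0, 0 and 6 counts, the 3 5xFAD-Dp16 sham mice had 0, and 8 of all 15 libraries with the segment were at 0. Before the start, Robo2 (-0.01 ± 0.16) and Robo1 (0.16 ± 0.18), axon guidance receptors 1.13 and 2.49 Mb away, overlapped between the groups. Gm49678, 0.09 Mb before the start, had 0.977 CPM in Dp16 and 0.428 CPM in WT on average, with a fold change of 1.14 ± 0.75 (adjusted p = 0.796). Past the far end, B230307C23Rik and A630089N07Rik, within 0.04 Mb of Zbtb21, had fold changes of 0.27 ± 0.31 and 0.58 ± 0.38 and did not pass the threshold. At these depths neither end can be placed more finely by expression. The 277 segment genes under the filter included 55 protein-coding genes, 25 of them keratin-associated proteins, and 208 had no count in any of the 8 libraries.

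The count of calls fell when single animals were left out, though it was 98 instead of 54 when Dp16 and WT sham were fitted alone. Without Dp16 animal 1, 2 or 3 the segment calls were 20, 20 and 21, and the genes outside 4, 3 and 10; without WT animal 1 or 2 the genes outside were 8 and 10. In each of the 8 fits without one animal 17 of the 34 segment genes stayed past the threshold, among them Ifnar1, Ifnar2, Jam2, Hmgn1, Gabpa, Brwd1, Dyrk1a, Ttc3, Itsn1, Tmem50b, Dscam, Hspa13, Cct8 and Mrpl39, as did Cbs and P4htm outside.

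Outside the segment 20 of 17411 tested genes changed, 9 higher and 11 lower in Dp16; over all genes tested, 0.308% were called in either direction. Cbs, the enzyme that condenses homocysteine with serine, fell the most firmly. It had 20.05, 15.1 and 18.0 CPM in Dp16 animals, against 33.99, 31.1, 29.3, 37.2 and 33.3 CPM in WT animals. The groups were far apart, and Cbs fell by 0.87 ± 0.13 on the log2 scale (adjusted p = 0.000287). Cbs is itself a gene of human chromosome 21, but its mouse copy is on chromosome 17 (31608894 to 31637238) and is not triplicated here. Of the 15 tested chromosome 17 counterparts of human chromosome 21 genes 3 had a fold change above 0, with a median of -0.14 and Cbs as the 1 call, and of the 29 on chromosome 10 15 were above 0, with a median of 0.02 and 0 calls (4 at an unadjusted p below 0.05, and 0 with DESeq2).

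**Figure D3:**
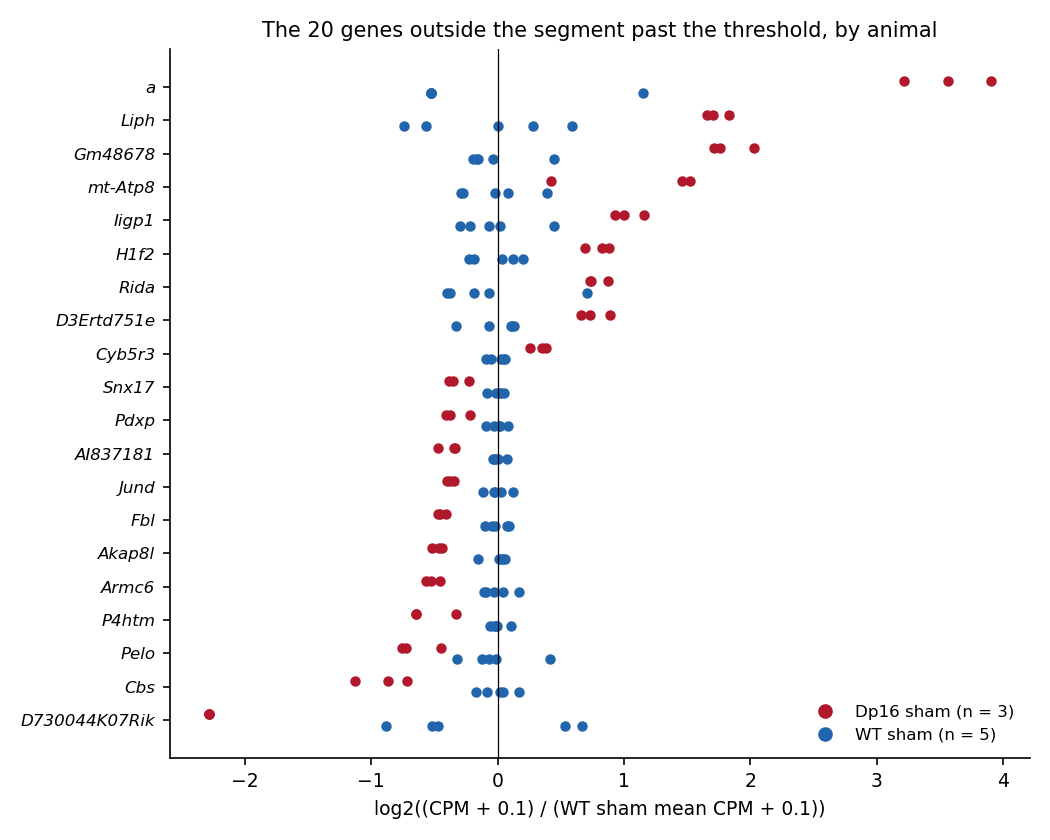
The 20 genes outside the segment past the threshold, each animal as log2 of its CPM over the WT sham mean (0.1 CPM added to both), with Dp16 sham (n = 3) above WT sham (n = 5) in each row. The 3 Dp16 animals lie outside the range of the 5 WT animals for each gene, with the smallest gaps for Rida and mt-Atp8.

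The other genes that fell were moderate in size. P4htm, an endoplasmic reticulum prolyl hydroxylase, had 57.0, 45.9 and 45.7 CPM in Dp16 animals, against 71.4, 68.6, 77.0, 70.3 and 70.8 CPM in WT animals. The groups were separate, and it fell by 0.55 ± 0.09 (adjusted p = 0.000849). Armc6 fell by 0.53 ± 0.10, the nuclear scaffold gene Akap8l by 0.48 ± 0.09, and Fbl, the methyltransferase fibrillarin of the nucleolus, by 0.45 ± 0.09. Pelo, a ribosome rescue factor, fell by 0.65 ± 0.15, Jund, an AP-1 subunit, by 0.37 ± 0.08, Snx17, an endosomal sorting nexin, by 0.32 ± 0.07, the phosphatase Pdxp, which acts on vitamin B6 phosphate and cofilin, by 0.34 ± 0.08, and AI837181 by 0.37 ± 0.08. D730044K07Rik had 0 counts in all 3 Dp16 libraries, against 5, 12, 11, 3 and 4 counts in the WT libraries. With a floor of 3 counts put in place of its 0, its Dp16 level over the group was 6.73-fold lower than in WT. That value leaves out the error of the 35 WT counts. The exact 95% counting interval of the ratio of Dp16 to WT, which covers this error too, reached up to 0.193. Neither value covers the spread between animals. D730044K07Rik shares 33.6% of its exon bases with Rpl30, a gene for a ribosomal protein, on the other strand. On the same strand, Pelo shares 46.2% of its exon bases with Gm49395 and Pdxp 45.1% with Gm49510. On the other strand Jund shares 52.6% with Gm11175 and Pelo 29% with Gm10734. In the 8 fits that each left out an animal, Armc6 and Akap8l passed in 5 and Fbl, AI837181 and D730044K07Rik in 3. Pelo, Snx17 and Pdxp passed in 2 and Jund in 1.

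The 9 genes that rose were of several kinds. H1f2, a linker histone, had 35.7, 34.5 and 31.4 CPM in Dp16 animals, against 16.5, 19.9, 22.3, 21.1 and 17.02 CPM in WT animals. No values overlapped, and it rose by 0.83 ± 0.16 (adjusted p = 0.00808). In its family, 14 linker and core histone genes were tested with a median of 0.11 and H1f2 as the 1 call by edgeR. DESeq2 called 2 of them. Of the 14, 7 had an unadjusted p below 0.05, beside 7.29% of all genes tested. H1f4 was at 1.02 ± 0.26 (adjusted p = 0.122). Iigp1, a GTPase induced by interferon that guards against intracellular parasites, had 3.61, 3.78 and 4.23 CPM in Dp16 animals, against 2.54, 1.57, 1.87, 1.48 and 1.75 CPM in WT animals, and rose by 1.04 ± 0.23 (adjusted p = 0.0276). Rida, an enamine deaminase, had 67.2, 74.1 and 67.1 CPM in Dp16 animals, against 30.6, 31.1, 66.1, 35.4 and 38.5 CPM in WT animals. WT library 3 nearly reached the Dp16 values, and the rise was 0.82 ± 0.19 (adjusted p = 0.0414). D3Ertd751e rose by 0.77 ± 0.15, the lipase gene Liph, on chromosome 16 but outside the segment (21953817 to 21995663), by 2.03 ± 0.44, the reductase Cyb5r3 by 0.34 ± 0.08 and Gm48678 by 1.84 ± 0.37. Gm48678 shares 27.98% of its exon bases with Itsn2 on the other strand. Iigp1 stayed past the threshold in 1 of the 8 fits that each left out an animal. It did not pass with no filter, with the replicate block, or with Dp16 and WT sham fitted alone. Of those 8 fits H1f2 passed in 6, D3Ertd751e and Gm48678 in 5, Liph in 2, Rida in 1 and Cyb5r3 in 0.

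Some called genes outside the segment lay near each other. Cbs and Akap8l on chromosome 17 are 684.2 kb apart, and both fell. Armc6 and Jund on chromosome 8 are 464.5 kb apart and both fell. Rida and D730044K07Rik on chromosome 15 are 39.2 kb apart and moved in opposite directions. Of the 13 tested genes from Cbs to Akap8l the median was -0.21 with 2 calls, and of the 24 from Armc6 to Jund it was -0.07 with 2 calls.

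The gene a, which encodes the agouti signalling protein of pigment cells (chromosome 2, 154791402 to 155051012), differed between libraries with and without the segment across the series. It had 38, 27 and 21 counts in Dp16 animals, against 0, 0, 0, 4 and 0 counts in WT animals, and rose (adjusted p = 0.0202). Over the groups this is a ratio of 37.3 with a counting interval of 14.0 to 140 (95%, exact binomial, counting error only). In the 15 libraries of the series that carry the segment it had 18 to 61 counts, against 0 in 17 of the 19 without it and 4 and 9 in the other 2. It shares 12.6% of its exon bases with Raly on the same strand. Cbs sorted the libraries too, with 15.1 to 26.5 CPM in the 15 with the segment and 27.9 to 39.1 CPM in the 19 without it.

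**Figure D4:**
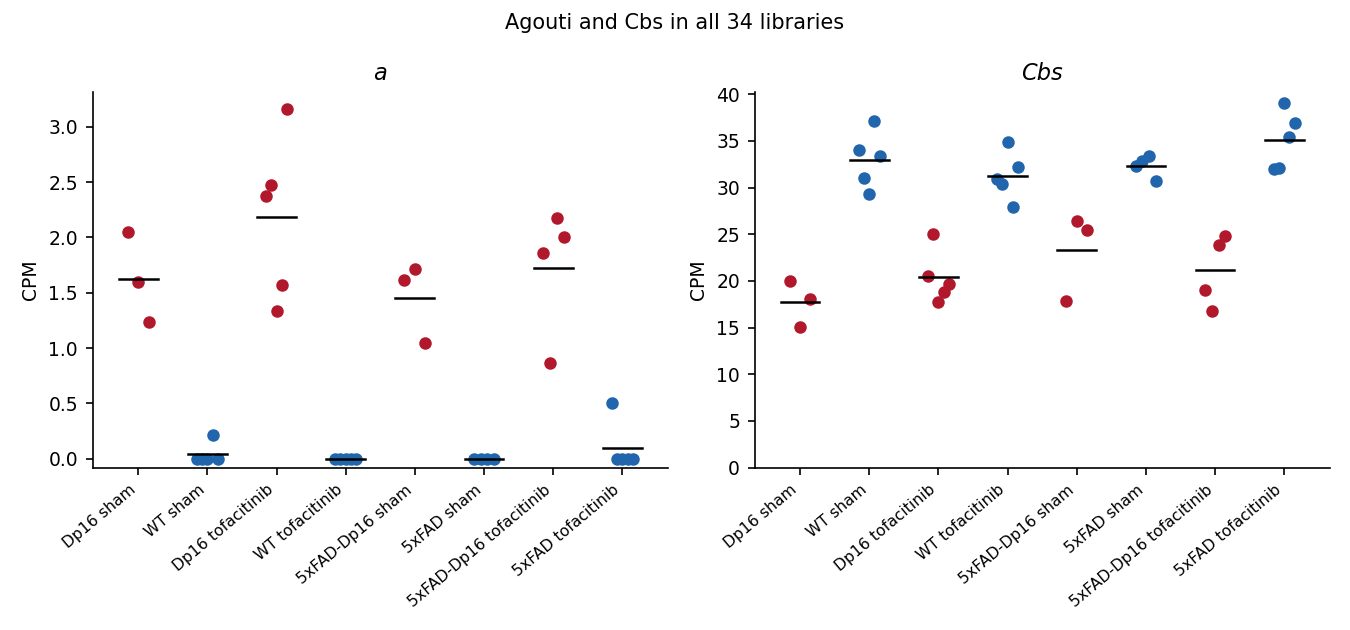
CPM of the agouti gene (left) and Cbs (right) in each of the 34 libraries by group, with group means as lines and groups that carry the segment in red. Agouti is at or near 0 in all groups without the segment, and Cbs is lower in each group with it.

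One call was mitochondrial. mt-Atp8, a subunit of ATP synthase encoded by the mitochondrial genome, had 44.7, 20.7 and 42.7 CPM in Dp16 animals, against 12.7, 15.2, 16.4, 20.3 and 12.8 CPM in WT animals. Dp16 animal 2 lay just above the highest WT animal, and the rise was 1.25 ± 0.21 (adjusted p = 0.00114). It did not pass without Dp16 animal 1 (1.02 on the log2 scale), nor when Dp16 and WT sham were fitted alone (1.29). The gene is 204 bases long (M, 7766 to 7969) and its last 43 bases are also the first of mt-Atp6 (7927 to 8607), which had 131, 121 and 146 CPM in Dp16 animals, against 102, 116, 150, 119 and 98.1 CPM in WT animals (0.19 ± 0.27, adjusted p = 0.952). The sequence is shown because reads of the shared part, in capitals, fit both genes.
mt-Atp8: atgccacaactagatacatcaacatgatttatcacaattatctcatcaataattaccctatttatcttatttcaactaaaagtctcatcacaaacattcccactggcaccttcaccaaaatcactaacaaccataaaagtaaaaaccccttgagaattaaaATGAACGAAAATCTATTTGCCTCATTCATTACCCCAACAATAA
The 13 tested mitochondrially encoded protein genes summed to 44955, 43075 and 51978 CPM in Dp16 animals, against 35457, 36016, 43827, 39537 and 32276 CPM in WT animals. Those sums overlapped at WT library 3. Of the 13 fold changes 11 were above 0, with a median of 0.33, 1 call by edgeR, 2 by DESeq2 and 7 at an unadjusted p below 0.05. mt-Nd6 and mt-Nd5, subunits of complex I, were at 0.77 ± 0.19 and 0.45 ± 0.16 (adjusted p = 0.102 and 0.451). The 37 tested nuclear genes of the respiratory chain had a median of -0.02, with 14 above 0 and 0 calls (4 at an unadjusted p below 0.05, and 0 with DESeq2).

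Segment genes were also higher in carriers among the animals on tofacitinib or with 5xFAD. In Dp16 against WT mice on tofacitinib 37 of the 107 segment genes rose, with a median of 0.56, and in 5xFAD-Dp16 against 5xFAD sham mice 33 rose, with a median of 0.58; 0.268% of all genes tested were called in each of these comparisons, on tofacitinib 0.257% higher and 0.0114% lower, and with 5xFAD 0.251% higher and 0.0171% lower. The 47 calls with 5xFAD, inside and outside the segment, hung on single animals: they were 26 and 28 without 5xFAD sham animal 1 or 2, 124, 183 and 19 without 5xFAD-Dp16 sham animal 1, 2 or 4, and 0 when these 2 groups were fitted alone. Of the 34 genes called in sham, 29 (85.3%) were called on tofacitinib, and they were 78.4% of the 37 called there. With 5xFAD 24 were called (70.6%), which were 72.7% of the 33. All 34 had a positive fold change in both. Together 46 segment genes rose in at least 1 of the 3 comparisons and 23 in all 3, including Ifnar1, Ifnar2, Hmgn1, Dyrk1a, Sod1, Itsn1, Jam2 and Ncam2. The 12 that rose with tofacitinib or 5xFAD but not in sham included App (0.71 with 5xFAD, adjusted p = 0.0205), Rcan1 (0.56 on tofacitinib, adjusted p = 0.000127), Ifngr2 (0.73 on tofacitinib, adjusted p = 0.0155), Il10rb, Cbr1, Gart, Wrb, Grik1 and Adamts1. The 5xFAD transgenes include a human APP sequence, and whether its reads reached the mouse App count was not tested.

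The tofacitinib animals allowed a direct test of whether the Dp16 effect differed with the drug. With edgeR 0 of 17518 genes passed (smallest adjusted p = 0.241), 396 genes (2.26%) had an unadjusted p below 0.05, and DESeq2 called 4, of which 0 were in the segment. Over the 107 segment genes the median difference was -0.02. For Ifnar1 the rise was 0.63 on tofacitinib and 0.79 in sham animals, and for Ifnar2 0.62 on tofacitinib and 0.88 in sham animals.

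Among the genes outside the segment, on tofacitinib 4 of the 20 were called (20% of them, and 40% of the 10 called there): Cbs (-0.59, adjusted p = 0.00451), a, H1f2 (0.63, adjusted p = 0.0355) and Gm48678 (1.56, adjusted p = 0.0266). With 5xFAD 1 of the 20, a, was among the 14 called. The sign was the same for 19 of 20 on tofacitinib and for 18 of 20 with 5xFAD, beside 62.5% and 56.0% of all genes tested outside the segment. Cbs averaged 20.4 ± 2.81 CPM in Dp16 and 31.3 ± 2.57 CPM in WT mice on tofacitinib (SD, n = 5 each), and 23.3 ± 4.68 CPM in 5xFAD-Dp16 and 32.3 ± 1.16 CPM in 5xFAD sham mice (n = 3 and n = 4). mt-Atp8 did not recur, at 0.04 on tofacitinib and -0.07 with 5xFAD. Liph was at 0.40 and 1.31, and neither passed.

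Interferon-stimulated genes lay on the higher side in Dp16 without passing singly. These genes are induced through the receptor encoded by Ifnar1 and Ifnar2. Of 39 tested type I interferon-stimulated genes outside the segment 36 had a fold change above 0, with a median of 0.50, beside 50.9% above 0 and a median of 0.01 over all genes tested. By edgeR 0 passed the threshold (10 at an unadjusted p below 0.05, and 1 with DESeq2). Their sum was 353, 235 and 242 CPM in Dp16 animals, against 206, 210, 219, 168 and 165 CPM in WT animals. Dp16 animal 1 stood highest and the other Dp16 animals just above the WT range. Lgals3bp, a secreted lectin-binding glycoprotein, had 60.5, 31.2 and 30.1 CPM in Dp16 animals, against 18.2, 21.5, 28.4, 12.9 and 14.6 CPM in WT animals (1.00 ± 0.25, adjusted p = 0.0929). The antiviral enzyme gene Rsad2 had 3.45, 3.13 and 3.93 CPM in Dp16 animals, against 1.15 to 2.25 CPM in WT animals (1.08 ± 0.33, adjusted p = 0.282). Eif2ak2, the kinase PKR, was separate too, at 0.54 ± 0.17 (adjusted p = 0.339), and Ifi27 overlapped at 0.63 ± 0.21. On tofacitinib the median of the list was 0.25, with 32 above 0, and with 5xFAD it was 0.63, with 39 above 0; the differences between these medians were not tested.

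The promoters of such genes often carry interferon response elements, with the core GAAANNGAAA. Read on both strands, these letters occur in 3.44% of 32851 RefSeq promoter windows of 300 bases (250 before and 50 after the start; GRCm38.p6). Of 29 genes of the type I list with a window 14 hold them. They are shown in capitals for Ifit1 (chr19:34640639-34640938, plus strand) and Rsad2 (chr12:26456403-26456702, minus strand), beside Lgals3bp (chr11:118401910-118402209, minus strand), which had the smallest p of the list and no match in the window.
Ifit1: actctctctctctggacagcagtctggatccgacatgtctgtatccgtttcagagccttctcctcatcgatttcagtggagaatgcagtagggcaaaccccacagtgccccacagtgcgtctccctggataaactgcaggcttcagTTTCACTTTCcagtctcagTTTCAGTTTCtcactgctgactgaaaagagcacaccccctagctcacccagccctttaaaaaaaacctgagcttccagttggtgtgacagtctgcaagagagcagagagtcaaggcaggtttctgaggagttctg
Rsad2: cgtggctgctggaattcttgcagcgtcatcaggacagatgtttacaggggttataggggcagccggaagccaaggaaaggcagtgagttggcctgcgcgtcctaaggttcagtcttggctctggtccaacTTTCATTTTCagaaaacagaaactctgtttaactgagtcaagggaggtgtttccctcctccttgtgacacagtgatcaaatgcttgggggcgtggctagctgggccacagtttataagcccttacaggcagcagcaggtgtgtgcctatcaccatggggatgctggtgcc
Lgals3bp: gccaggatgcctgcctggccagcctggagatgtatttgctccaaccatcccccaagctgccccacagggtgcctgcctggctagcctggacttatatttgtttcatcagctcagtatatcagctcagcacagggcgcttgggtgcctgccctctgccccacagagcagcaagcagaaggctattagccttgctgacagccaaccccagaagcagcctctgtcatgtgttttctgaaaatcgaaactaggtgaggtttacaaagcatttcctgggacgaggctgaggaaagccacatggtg
The 14 listed genes with the letters had a median fold change of 0.64 and the 15 without a match 0.40, a difference that was not tested. Ifit1, with 2 matches, had 5.98, 3.61 and 3.29 CPM in Dp16 animals, against 2.30, 2.87, 2.75, 1.59 and 1.75 CPM in WT animals (0.85 ± 0.35, adjusted p = 0.562).

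Of 35 tested genes of the interferon-gamma response and of MHC class I antigen presentation 31 were above 0, with a median of 0.40 and 1 call, Iigp1. The class I genes H2-K1 and H2-D1 overlapped between the groups, at 0.45 ± 0.16 and 0.50 ± 0.19 (adjusted p = 0.426 and 0.481). The 28 transducers and feedback genes of the JAK-STAT pathway had a median of 0.08, with 18 above 0 and 0 calls (1 at an unadjusted p below 0.05, and 0 with DESeq2). Homeostatic microglia genes had a median of -0.05, with 7 of 16 above 0, and plaque-associated microglia genes 0.03, with 20 of 30 above 0.

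Lists of activity, rhythm and myelin had medians away from 0, with 0 calls by edgeR and 0 by DESeq2 in each. Of 25 immediate-early genes 1 was above 0, the median was -0.39, and 1 had an unadjusted p below 0.05. The sum of these genes was 1142, 1169 and 1160 CPM in Dp16 animals, against 2122, 1318, 1046, 1276 and 1761 CPM in WT animals, so that WT library 3 lay below all Dp16 animals and WT libraries 1 and 5 stood high. Fos had 9.48, 9.28 and 9.22 CPM in Dp16 animals, against 34.1, 13.2, 8.14, 9.91 and 28.4 CPM in WT animals (-1.06 ± 0.38, adjusted p = 0.451), and Egr1 140 to 141 CPM in Dp16, against 119 to 420 CPM in WT. Of 19 circadian clock genes 1 was above 0, with a median of -0.22 and 4 at an unadjusted p below 0.05; Cry1 and Nr1d1, repressors of the clock, were separate between the groups at -0.54 ± 0.16 and -0.33 ± 0.13 (adjusted p = 0.225 and 0.47). The hour at which tissue was taken is not in the labels. Of 20 myelin genes 17 were above 0, with a median of 0.25 and 3 at an unadjusted p below 0.05; the myelin protein genes Mal and Mobp were separate between the groups at 0.65 ± 0.18 and 0.58 ± 0.22 (adjusted p = 0.208 and 0.47).

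**Figure D5:**
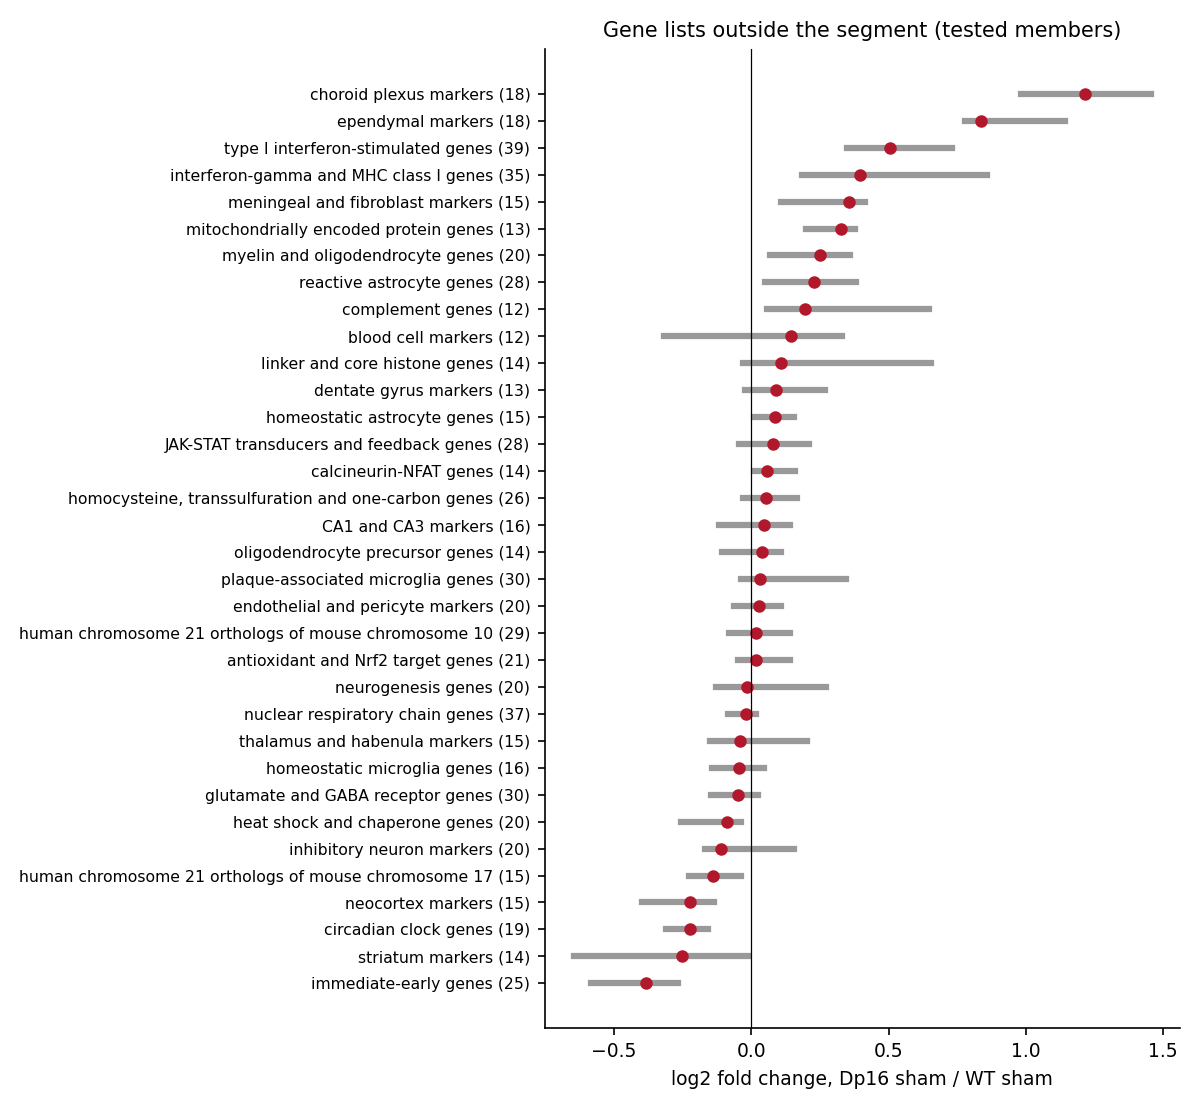
Median (point) and interquartile range (bar) of the log2 fold changes, Dp16 sham over WT sham, of the tested members of 34 gene lists without segment genes, with the number of members in brackets. Choroid plexus and ependymal markers (medians 1.22 and 0.84) lie furthest right, then the interferon lists (0.50 and 0.40), and immediate-early genes (-0.39) furthest left.

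Markers of the ventricle wall were also on the higher side in Dp16. All 18 choroid plexus markers had a fold change above 0, with a median of 1.22 and 0 calls (0 at an unadjusted p below 0.05, and 0 with DESeq2), and Igfbp2, abundant in that epithelium, had 91.3, 83.2 and 57.4 CPM in Dp16 animals, against 28.3, 45.4, 82.8, 26.7 and 30.4 CPM in WT animals. All 18 ependymal markers were above 0 too, with a median of 0.84, 0 calls (4 at an unadjusted p below 0.05) and sums of 98.9, 111 and 85.7 CPM in Dp16 animals, against 37.1, 76.9, 62.9, 61.3 and 32.3 CPM in WT animals. The ependymal sums did not overlap, while the choroid sums did. Hydin, a gene of motile cilia, had 2.84 to 3.07 CPM in Dp16, against 0.375 to 1.85 CPM in WT. The part of ventricular tissue in the interferon, myelin and other lists was not tested.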

How the data were processed

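RNA was measured by poly(A) sequencing of hippocampus, with strand-specific libraries per the labels' protocols. The authors deposited whole read counts per gene for 34 libraries, and a table of RPKM whose values are proportional to these counts; per the submitters' processing notes the tools included HTSeq 0.6.1 and HISAT2 2.1.0, and the build was GRCm38, with no roles given. No source states the strand setting of the counting, so reads of overlapping and antisense genes may be shared, and paralogs such as Ifit, H2 and histone genes are uncertain. Gene positions come from GENCODE release 21, which held 99.6% of the IDs of release 24 in the files.

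Counts were tested with edgeR 4.0.16 (R 4.3.3) after TMM scaling and filterByExpr by group, which kept 17518 genes: a quasi-likelihood F-test, two-sided, over 34 libraries with 8 group means and a sex term (25 residual degrees of freedom). Adjusted p is Benjamini-Hochberg over all genes tested, with a threshold of 0.05; SE is the log2 fold change over the root of F, and intervals are 95%. RPKM is used for levels alone. Counts were also simulated with the sizes of the 34 libraries and the trend of the spread over level. Changed genes were drawn at random from all genes tested. Of these, 23 of 100 genes changed by 0.58 and 65 of 100 changed by 1.0 on the log2 scale were recovered, with 1 false call.

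The members and the 43 gene lists (9 of the segment, 34 outside it) were chosen with earlier results of these data known. Genes named are those of the segment lists, the 5 highest and 5 lowest segment fold changes at 1 CPM or more, the 5 tested genes nearest each end, the genes called outside, and up to 4 members with the smallest p of a list with a call or a median beyond 0.2; from these a part is described, and gene models without a name of their own and some lower-ranked or less abundant genes (such as Ifit1, Chodl and Gm49678) were added after their values were seen. Alternatives were DESeq2 size factors, no filter, no sex term, a replicate block, the compared groups alone, DESeq2 1.42.0, a fit that drops the 3 libraries poorest in markers of hippocampus, and leaving out each library. 1 animal of 5xFAD on tofacitinib and 1 of 5xFAD-Dp16 sham that the series text counts are not analysed here. No batch is labelled.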

Additional observations from a re-analysis of the deposited data

Results flagged for a closer look

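A WT sham animal stood apart from the other 4 in 9 of 106 genes looked at, by a gap above 0.71 of the range of the group. How often such a gap arises by chance in these genes was not tested. For Erg it was library 4, with 5.04 CPM against a group median of 8.58 CPM. For Cbr1 and Usp16 it was library 1, with 52.7 CPM and 16.7 CPM. For Scaf4, Akap8l and Gm48678 it was library 2, with 34.6, 28.4 and 2.30 CPM. For Son and Rida it was library 3, with 142 and 66.1 CPM. For the agouti gene a it was library 4, with 0.219 CPM where the other 4 were at 0. Gm42418 took 2.42% of the counts of WT library 5. Lipi, which did not pass the filter on low counts, had 29 counts over the 3 Dp16 sham animals, against 1 count over the 5 WT sham animals, while 8 of the 15 libraries with the segment, all 3 of 5xFAD-Dp16 sham among them, were at 0; 3 counts is the limit that a count of 0 allows.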

How the results depend on the processing

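The count of calls, 54 in sham (34 in the segment, 20 outside), was 237 with no filter (192 outside), 94 with DESeq2 (50), 98 when Dp16 and WT sham were fitted alone (55) and 119 without the 3 libraries poorest in hippocampal markers (74); the replicate block gave 12 outside. DESeq2 size factors gave the same 54 genes, and DESeq2 and the fit without the 3 libraries called all 54. The segment median of 0.58 was 0.44 with no filter. Without one animal, calls were 23 to 46, segment calls 20 to 32, outside calls 3 to 15, the segment median 0.55 to 0.60 and the median of the type I interferon list, 0.50 with all animals, 0.36 to 0.61. On tofacitinib the 47 calls became 214 with no filter. With 5xFAD the 47 became 1054 with no filter, 28 with the replicate block, 115 with DESeq2, 27 without the 3 libraries and 0 with these 2 groups alone, and 19 to 183 without one animal. The difference between treatments gave 32 calls with no filter and 4 with DESeq2, against 0. The sign turned for 3 genes that were not called: without one animal Bace2 ran from -0.171 to 0.209, turning to -0.03904 without Dp16 animal 1, -0.0122 without Dp16 animal 3 and -0.171 without WT animal 1. Mir99ahg ran from -0.251 to 0.144, was 0.0087 with the replicate block and 0.115 with Dp16 and WT sham fitted alone, and turned without Dp16 animal 1 or WT animal 1, 4 or 5. Gm9843 ran from -0.0456, without Dp16 animal 3, to 0.146. The cause was not tested. None of the 54 called genes changed sign under the 7 other settings or the 8 fits without one animal, except that D730044K07Rik had no value with Dp16 and WT sham fitted alone. The replicate numbers do not pair animals (correlations of same-numbered animals 0.06, 0.09 and -0.03), and 41 of the 54 genes kept their call with the block. In the simulated data, with changed genes drawn from all levels, 23 of 100 changes of 1.5-fold were recovered. Among the segment genes 27 of 56 between 10 and 100 CPM and 7 of 13 above 100 CPM were called. Between 1 and 10 CPM it was 0 of 19, and under 1 CPM also 0 of 19. A gene that did not pass may therefore still differ.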

Other observations

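Among the 34 lists without segment genes 22 had a median log2 fold change within 0.2 either way (-0.14 to 0.20), and 20 of these held no call. Among them were markers of the dentate gyrus (median 0.09, 9 of 13 above 0), of fields CA1 and CA3 (0.04, 9 of 16), of inhibitory neurons (-0.11, 7 of 20) and of neurogenesis (-0.01, 9 of 20), and glutamate and GABA receptor genes (-0.05, 11 of 30). Genes of homocysteine and one-carbon metabolism, the pathway of Cbs, had a median of 0.05 with 17 of 26 above 0, antioxidant genes 0.02 with 13 of 21, and calcineurin-NFAT genes 0.06 with 11 of 14. Heat shock genes had a median of -0.09 with 4 of 20 above 0. Complement genes had a median of 0.20 with 9 of 12 above 0, and reactive astrocyte genes 0.23 with 22 of 28. Markers of nearby regions were at -0.25 for the striatum (3 of 14 above 0), -0.22 for the neocortex (3 of 15) and -0.04 for thalamus and habenula (7 of 15). Meningeal markers were at 0.36 (14 of 15), endothelial and pericyte markers at 0.03 (11 of 20) and blood cell markers at 0.14 (7 of 12). Homeostatic astrocyte genes were at 0.09 (11 of 15) and oligodendrocyte precursor genes at 0.04 (8 of 14).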
